A study of Mus musculus with 6 samples.

Results

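Cholesterol is made from acetyl-CoA by a chain of enzymes, taken up in lipoproteins and exported, and the genes for these steps were followed here in a bone-forming cell line under glucocorticoid. The set holds 29 genes of 54429 distinct names in the deposited table, chosen by name: 7 enzymes of the early mevalonate pathway, 11 enzymes from squalene to cholesterol, 5 regulators of the SREBP transcription factors, and 6 genes of sterol transport, uptake control, storage and efflux. All 29 were in the table and 28 passed the filter on low values, at least 1 FPKM in at least 3 libraries. FPKM is the number of read fragments per kilobase of exon, scaled to the library's reads, which allows for exon length and library depth. Totals of FPKM ran from 288870 to 342666 per library, so a comparison between libraries depends on the scaling. The efflux pump gene Abca1 did not pass.

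Messenger RNA was sequenced in MC3T3-E1, a pre-osteoblast line from mouse calvaria, in 3 libraries of cells given glucocorticoid (GC) and 3 libraries of control cells under normal conditions, each after 12 hours. The labels name neither the glucocorticoid, its dose nor the vehicle, and they do not say from which subclone the cells came or whether replicates were separate cultures, so the p-values measure the spread between these libraries, which the design text calls biological replicates. The recovered read totals lay between 14451654 and 16129699 per library. The treatment label was checked on Tsc22d3, a known glucocorticoid-induced gene, which averaged 162 ± 14.4 FPKM in GC and 28.4 ± 1.43 FPKM in control (SD, n = 3 each). Of the 9 osteoblast lineage markers, Col1a1, Col1a2, Spp1 and Sparc were high, while Alpl reached at most 0.0288 FPKM and Bglap at most 1.43 FPKM. The summed level of the 9 markers was 3423 to 3694 FPKM in GC and 3980 to 4182 FPKM in control. That sum rests on Col1a1, Col1a2, Spp1 and Sparc. Of these, Col1a1 and Col1a2 lay lower in GC without overlap, with adjusted p-values of 0.381 and 0.543 by limma-trend. The groups of Spp1 and Sparc overlapped, and the mean of Sparc was higher in GC. Ibsp and Sp7 lay higher in GC without overlap. Ibsp held 1.37, 2.06 and 1.43 FPKM in GC, against 0.120, 0.708 and 0.338 FPKM in control, and Sp7 held 6.03, 4.49 and 4.33 FPKM in GC, against 3.95, 4.10 and 3.97 FPKM in control. By limma-trend the adjusted p of Ibsp was 0.0684, or 0.0175 with the replicate number as a block, and that of Sp7 was 0.369, or 0.215 with the block. The 5 adipocyte markers summed to 0.0262, 0.247 and 0.103 FPKM in GC and 0.0139, 0 and 0 FPKM in control, with Plin1, Cidec and Lep listed at 0 in all 6 libraries. Endothelial markers summed to at most 0.180 FPKM and those of hepatocytes to at most 0.0478 FPKM in any library. The 5 macrophage markers summed to 0.781, 0.438 and 0.963 FPKM in GC and 0.298, 0.356 and 0.397 FPKM in control, with Adgre1 and Tyrobp listed at 0 in all 6 libraries. The sums of the osteoblast, adipocyte and macrophage markers did not overlap between groups, and their part in the results was not tested. The macrophage sum rests mostly on Cd68, with 5 to 19 reads per library and groups that overlapped. The adipocyte sum rests on Fabp4, with at most 9 reads in any library, and on 3 reads of Adipoq in GC replicate 2. Both sums are near the limit of detection.

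As background, SREBP2, the product of Srebf2, is the main transcription factor of cholesterol synthesis, and SREBP1, the product of Srebf1, leans towards fatty acid synthesis. Both are made as precursors in the membrane of the endoplasmic reticulum and are escorted to the Golgi by SCAP, where they are cut and released. INSIG proteins hold SCAP back when sterol is plentiful, and Insig1 is itself a target of SREBP. The liver X receptors act in the other direction: when oxysterols build up they turn on efflux through Abca1 and the ubiquitin ligase Mylip (IDOL), which removes lipoprotein receptors.

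The start regions of 5 of the genes whose GC and control libraries did not overlap are printed first, since SREBP is known to act on this pathway through elements near gene starts, together with the factors NF-Y and Sp1. RefSeq promoters on GRCm38.p6, from 250 bases before to 50 bases after the start of transcription, were found for 24 of the 29 genes, and not for Sqle, Fdps, Fdft1, Stard4 and Npc1. The stretches run 5′ to 3′ in the direction of the gene and stop where the gene begins in GENCODE M21. Capitals mark CCAAT (or ATTGG on the other strand), GGGCGG (or CCGCCC) and, in Srebf2, the letters ATCACCCCA. The stretches of Dhcr7, Srebf1 and Sc5d, also without overlap, are not printed. Before its first start Dhcr7 held no CCAAT and Srebf1 no GGGCGG, though each held the missing letters at another start.

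Srebf2, chr15:82147019-82147180, plus strand: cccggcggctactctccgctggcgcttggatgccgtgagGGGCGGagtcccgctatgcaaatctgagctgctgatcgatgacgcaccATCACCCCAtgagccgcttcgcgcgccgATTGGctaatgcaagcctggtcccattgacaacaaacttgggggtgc

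Insig1, chr5:28071162-28071362, plus strand: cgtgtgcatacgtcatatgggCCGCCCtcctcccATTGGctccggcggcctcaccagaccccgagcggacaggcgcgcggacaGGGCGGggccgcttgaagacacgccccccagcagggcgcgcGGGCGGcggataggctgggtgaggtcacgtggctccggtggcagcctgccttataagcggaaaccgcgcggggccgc

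Lss, chr10:76531355-76531587, plus strand: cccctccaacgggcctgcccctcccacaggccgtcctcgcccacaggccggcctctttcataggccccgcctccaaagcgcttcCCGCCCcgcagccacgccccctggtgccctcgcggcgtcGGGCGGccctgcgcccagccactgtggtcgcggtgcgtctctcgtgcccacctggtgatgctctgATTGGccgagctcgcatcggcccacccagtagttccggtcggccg

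Mvd, chr8:122443423-122443672, minus strand: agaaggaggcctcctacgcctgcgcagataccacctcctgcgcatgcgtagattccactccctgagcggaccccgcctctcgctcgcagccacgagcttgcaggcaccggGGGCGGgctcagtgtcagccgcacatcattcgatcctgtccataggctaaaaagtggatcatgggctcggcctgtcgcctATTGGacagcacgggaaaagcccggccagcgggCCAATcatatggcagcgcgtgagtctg

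Npc2, chr12:84773153-84773362, minus strand: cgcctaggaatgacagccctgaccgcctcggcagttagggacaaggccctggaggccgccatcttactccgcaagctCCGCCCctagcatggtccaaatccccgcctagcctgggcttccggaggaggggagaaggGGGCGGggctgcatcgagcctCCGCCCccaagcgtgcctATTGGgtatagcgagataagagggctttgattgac

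The whole sterol regulatory element, ATCACNCCA followed by C, was found in the windows of none of the 24 genes and in 0.270% of all 27025 genes with a promoter, and these letters are one spelling of an element that varies. The stretch ATCACNCCA without that last letter, a search added after the sequences were seen, matched Srebf2 at chr15:82147106-82147114 and 0.992% of all genes. The core CACNCCAC matched 3 of 24 genes, Acat2, Hmgcs1 and Insig1, beside 7.12% of all genes. The sites of Hmgcs1 and Acat2 that lie before the gene and on its own strand are shown with 10 bases on each side and the core in capitals.

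Hmgcs1, chr13:119690205-119690232, plus strand: gtcaccgtctCACCCCACttcccaggtc

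Acat2, chr17:12960889-12960916, minus strand: ggatcctccaCACCCCACcctaacccga

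The CCAAT box was present in 21 of 24 windows, beside 41.1% of all genes and 43.6% of the 8384 tested genes with a promoter. The Sp1 box GGGCGG was present in 23 of 24, beside 38.2% of all genes and 71.8% of tested genes. The E-box CANNTG stood in 18 of 24, or 75.0%, beside 75.0% of all genes and 65.3% of tested genes. The glucocorticoid response element, GNACA and TGTNC with 3 bases between them, was found in none of the 24 and in 0.537% of all genes. Every motif was searched on both strands, a gene with several start sites counted once if any of them matched, and a match is a run of letters and not a measured binding site.

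Measured against control, the sterol genes were mostly a little lower in GC, and no single one of them passed the test over all genes. Of 28 tested genes, 23 or 82.1% had a negative log2 fold change, beside 52.3% of all 11729 tested genes, and the median was -0.12, beside -0.01 over all tested genes. The set was chosen with earlier results of these data known, so its counts are a description and not independent support. None of the 28 was called higher or lower by limma-trend at an adjusted p under 0.05, beside 1.94% of all tested genes, or 0.853% lower and 1.08% higher. Over all genes 127 were called higher and 100 lower, a split that became 157 and 77 with library medians set equal. At an unadjusted p under 0.05, 7 sterol genes passed, beside 19.3% of all tested genes. Of these 6 were lower, beside 11.5%, and 1 was higher, beside 7.87%. In 9 of the 28 all 3 GC libraries lay below all 3 controls, beside 14.7% of all tested genes, and in 1 they lay above, beside 10.8%. In RNA from bulk cultures, fewer cells with a transcript and less transcript per cell cannot be told apart.

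**Figure D1:**
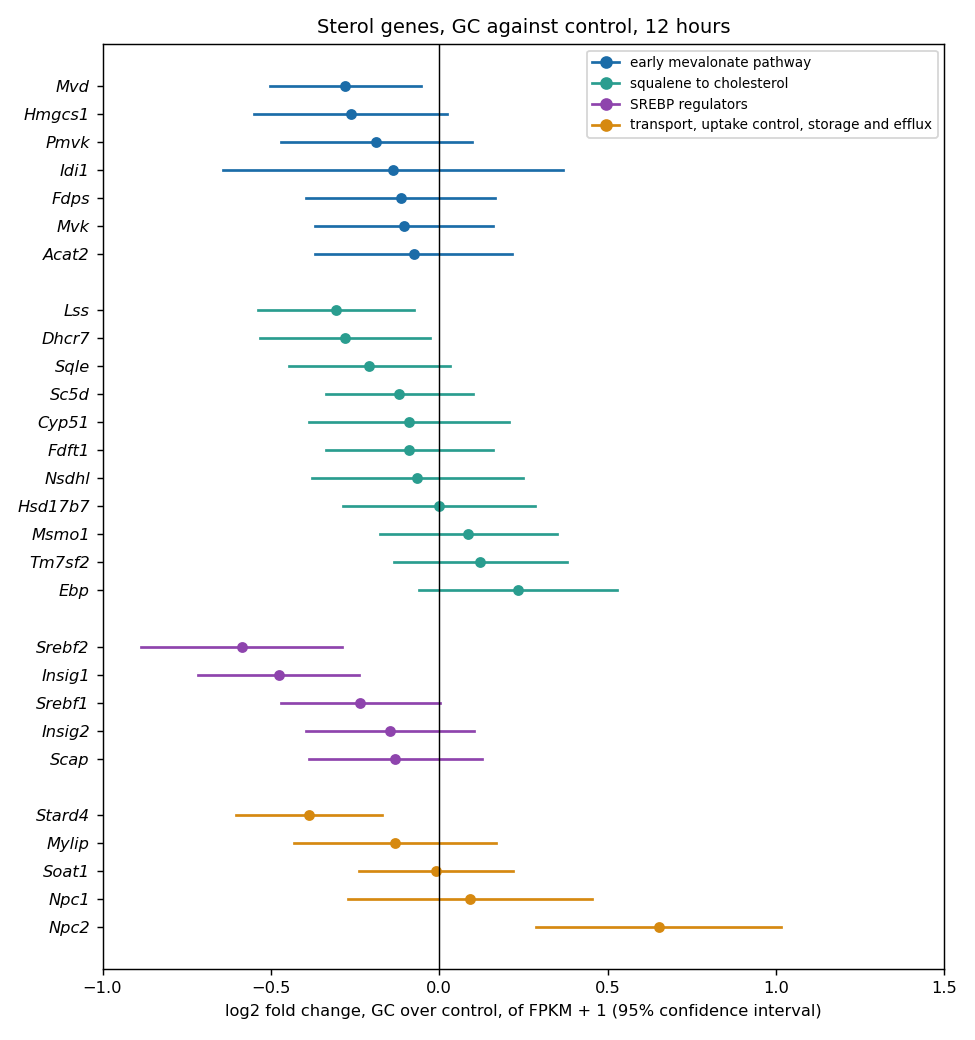
Log2 fold change of FPKM + 1, GC over control, with its 95% confidence interval from limma-trend (x axis) for the 28 tested genes (y axis), coloured by role. Most points lie left of 0, with Srebf2 at -0.59 and Insig1 at -0.48 furthest left and Npc2 at 0.65 furthest right.

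**Figure D2:**
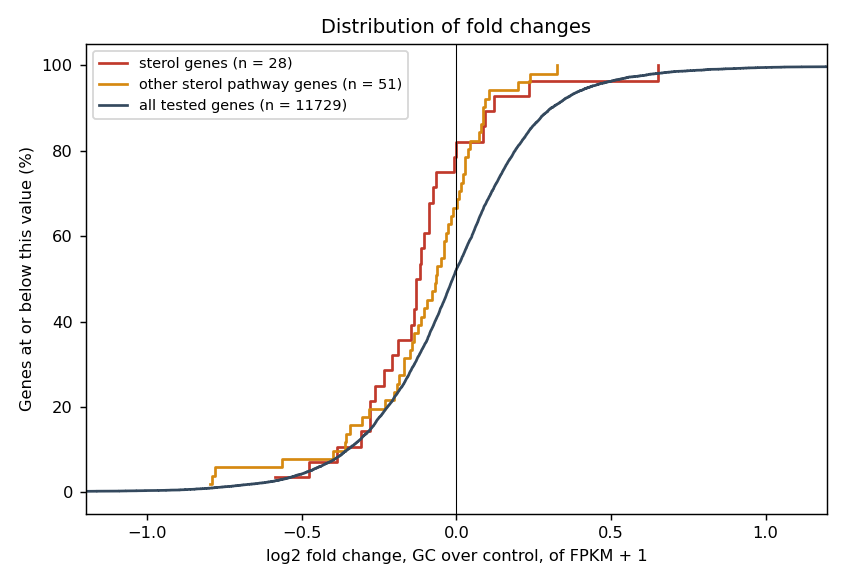
Cumulative percentage of genes (y axis) at or below each log2 fold change, GC over control (x axis), for the 28 sterol genes, 51 other sterol pathway genes and 11729 tested genes. The curve of the sterol genes runs left of that of all genes around 0, with a median of -0.12 against -0.01.

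Deviations from group means correlated at 0.511, 0.248 and 0.383 between GC and control libraries numbered 1, 2 and 3. The fit was therefore also made with the replicate number as a block. The titles give replicate numbers but no pairing, so the choice of this block rests on these same values. On simulated data false calls exceeded the nominal share, more so with the block. With it 8.99% of all tested genes were called. Of the sterol genes 3 fell, beside 5.0% of all tested genes, and 1 rose, beside 3.99%. These were Srebf2, Insig1 and Stard4, which fell, and Npc2, which rose. The 4 genes are described with both values below, and the fit without the block is meant where none is named.

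Among the SREBP regulators all 5 fold changes were negative, with a median of -0.24. Srebf2 held 49.1, 50.7 and 38.9 FPKM in GC replicates 1 to 3, against 71.8, 69.1 and 67.6 FPKM in control replicates 1 to 3. All GC libraries lay well below the controls, and GC replicate 3 was lowest. The log2 fold change was -0.59 ± 0.13 (SE), with an adjusted p of 0.0680 by limma-trend and 0.0210 with the replicate block. The mean was 46.3 ± 6.42 FPKM in GC, 33.5% below the 69.5 ± 2.14 FPKM in control (SD, n = 3 each).

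Srebf1 held 10.4, 11.0 and 9.24 FPKM in GC, against 12.5, 12.6 and 11.4 FPKM in control. The groups did not overlap, but the gap between GC replicate 2 and control replicate 3 was small, and the log2 fold change of -0.24 ± 0.10 (SE) had an adjusted p of 0.260. Srebf2 RNA stood at 4.71, 4.62 and 4.21 times the FPKM of Srebf1 in GC and at 5.73, 5.49 and 5.91 times in control, so the ratio between the 2 factors was lower in each GC library than in each control. Scap, the escort, averaged 10.2 ± 1.01 FPKM in GC and 11.2 ± 0.945 FPKM in control, with overlapping groups.

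The INSIG genes differed in how far their groups stood apart. Insig1 held 46.0, 45.5 and 41.8 FPKM in GC, against 60.9, 60.4 and 65.4 FPKM in control, with no overlap. Its log2 fold change was -0.48 ± 0.10 (SE), with an adjusted p of 0.0638 by limma-trend and 0.0295 with the replicate block. Insig2, whose product also retains SCAP, held 36.9, 36.2 and 39.1 FPKM in GC, against 44.6, 42.6 and 37.6 FPKM in control. Here GC replicate 3 exceeded control replicate 3, and the log2 fold change of -0.15 had a 95% interval of -0.40 to 0.10. Insig1 RNA stood at 1.25, 1.26 and 1.07 times the FPKM of Insig2 in GC and at 1.36, 1.42 and 1.74 times in control. That difference between the 2 genes was not tested.

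**Figure D3:**
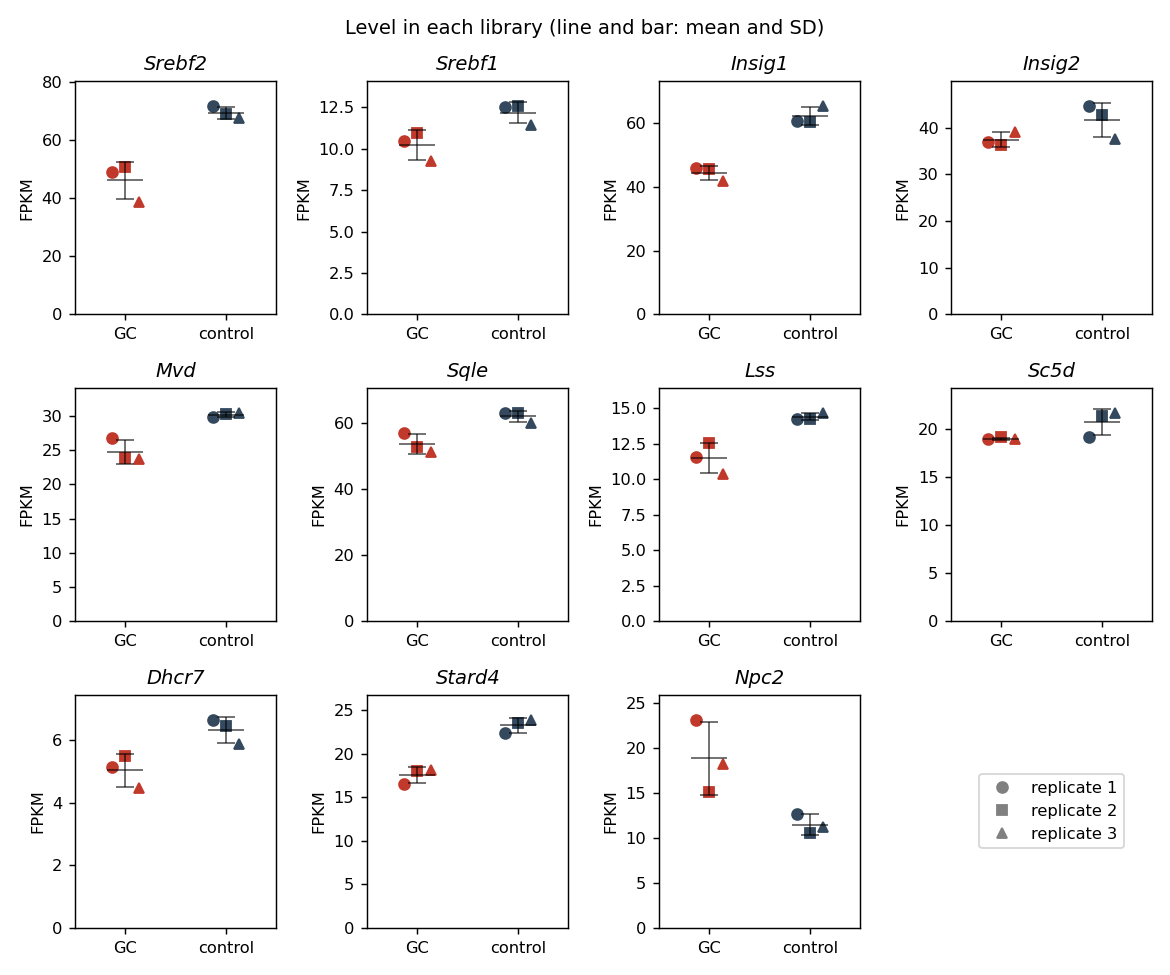
FPKM (y axis) of the 10 sterol genes whose groups do not overlap, and of Insig2, in each GC and control library, with marker shapes for replicates 1 to 3 and the group mean and SD as a line and bars. Npc2 is the gene with GC above control, and in Insig2 GC replicate 3 lies above control replicate 3.

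The early mevalonate enzymes, which turn acetyl-CoA into farnesyl diphosphate, all had negative fold changes, 7 of 7, with a median of -0.14. Mvd, the decarboxylase that makes isopentenyl diphosphate, held 26.8, 23.9 and 23.7 FPKM in GC, against 29.8, 30.3 and 30.5 FPKM in control. It was the single one of the 7 early enzymes with every GC library below every control, beside 14.7% of all tested genes. Its log2 fold change was -0.28 ± 0.10 (SE) with an adjusted p of 0.177.

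Hmgcs1, the cytosolic HMG-CoA synthase, held 29.6, 31.8 and 38.4 FPKM in GC and 37.5, 40.4 and 41.9 FPKM in control, so GC replicate 3 lay just above control replicate 1. It was lower in GC within each replicate number, as was Idi1, the isopentenyl diphosphate isomerase. Idi1 held 15.6, 21.8 and 26.2 FPKM in GC and 17.8, 24.5 and 27.6 FPKM in control, and its replicate 1 libraries were lowest in both groups. The differences between its replicates exceeded those between its groups, and its fold change of -0.14 had a 95% interval of -0.64 to 0.37.

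The remaining early enzymes overlapped between groups. Acat2, the cytosolic thiolase of the first step, averaged 67.7 ± 9.25 FPKM in GC and 71.0 ± 1.54 FPKM in control, and the mevalonate kinase Mvk 40.6 ± 4.47 FPKM in GC and 43.6 ± 1.19 FPKM in control (SD, n = 3 each). Pmvk, the next kinase, averaged 21.8 ± 2.50 FPKM in GC and 24.9 ± 2.41 FPKM in control. In all 3 genes GC replicate 1 was the highest GC library. Fdps, the farnesyl diphosphate synthase, had 3.14 ± 0.116 FPKM in GC and 3.50 ± 0.517 FPKM in control.

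Fdps has near-identical copies elsewhere in the genome. The processed pseudogene Gm3571 is 98.9% identical over 1062 aligned bases of the Fdps transcript, and it was listed with 24.5, 17.8 and 24.7 FPKM in GC and 22.2, 19.6 and 25.7 FPKM in control. How reads were divided between them is not given in the sources used here, so the level of Fdps is uncertain. Acat2 is 97.7% identical to Acat3 over 1477 bases and 98.7% to Tcp1 over 445 bases, Fdft1 97.4% to the pseudogene Gm6781 over 1249 bases and Idi1 100% to the pseudogene Gm13502 over 684 bases. Acat3, Gm6781 and Gm13502 each held at most 1.10 FPKM in any library, while Tcp1 held 120, 99.1 and 112 FPKM in GC and 120, 111 and 106 FPKM in control, above Acat2 in each. Dhcr7 and Msmo1 share shorter stretches with many other transcripts. Examples are Dhcr7 with Ppil4, 97.6% identical over 207 bases, and Msmo1 with Zmynd8, 97.5% identical over 202 bases. The part of these stretches in the values of Dhcr7 and Msmo1 was not tested.

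Among the 11 enzymes from squalene to cholesterol 8 fold changes were negative and 3 positive, with a median of -0.09. In 4 of them all GC libraries lay below all controls, beside 14.7% of all tested genes. Lss, which closes squalene epoxide to lanosterol, held 11.6, 12.5 and 10.4 FPKM in GC, against 14.3, 14.3 and 14.7 FPKM in control. Its log2 fold change was -0.31 ± 0.10 (SE), the furthest from 0 among the 18 synthesis enzymes, with an adjusted p of 0.160. With the gene length trend between libraries removed it was -0.18, a smaller distance by more than 1.5 times.

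Dhcr7, a reductase at the end of the pathway, held 5.13, 5.50 and 4.46 FPKM in GC, against 6.65, 6.44 and 5.86 FPKM in control. Sqle, the squalene epoxidase and a known control point of the pathway, held 57.0, 52.7 and 51.1 FPKM in GC, against 63.0, 62.8 and 60.1 FPKM in control. Their log2 fold changes were -0.28 and -0.21, with adjusted p-values of 0.217 and 0.322. Sc5d, the lathosterol desaturase, held 19.0, 19.1 and 18.9 FPKM in GC, against 19.2, 21.4 and 21.7 FPKM in control. The GC libraries of Sc5d were nearly equal, and control replicate 1 was close to them.

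The middle steps, which strip methyl groups from lanosterol and shift its double bond, did not show the same sign throughout. Cyp51, the lanosterol demethylase, averaged 66.9 ± 9.01 FPKM in GC and 71.0 ± 3.53 FPKM in control. The squalene synthase Fdft1, which acts before these steps, averaged 23.2 ± 2.56 FPKM in GC and 24.6 ± 0.410 FPKM in control. Nsdhl, a dehydrogenase of the demethylation complex, averaged 19.4 ± 3.44 FPKM in GC and 20.1 ± 0.978 FPKM in control. Hsd17b7, the ketoreductase of the same complex, averaged 13.5 ± 2.01 FPKM in GC and 13.4 ± 0.902 FPKM in control, with a log2 fold change of -0.0012 and a 95% interval of -0.29 to 0.28.

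Positive fold changes were found for Msmo1, the methylsterol oxidase (0.09), Tm7sf2, a sterol reductase (0.12), and Ebp, the sterol isomerase (0.23). Ebp held 19.4, 15.0 and 18.1 FPKM in GC and 16.2, 14.6 and 13.3 FPKM in control, higher in GC within each replicate number, and its groups overlapped with an adjusted p of 0.367. Without the block the intervals of all 3 genes held 0. Leaving out 1 library gave 0.0072 (without GC replicate 1) to 0.17 (without GC replicate 2) for Msmo1, and 0.08 (without GC replicate 3) to 0.19 (without GC replicate 2) for Tm7sf2. Ebp was at 0.15 with the length trend removed.

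**Figure D4:**
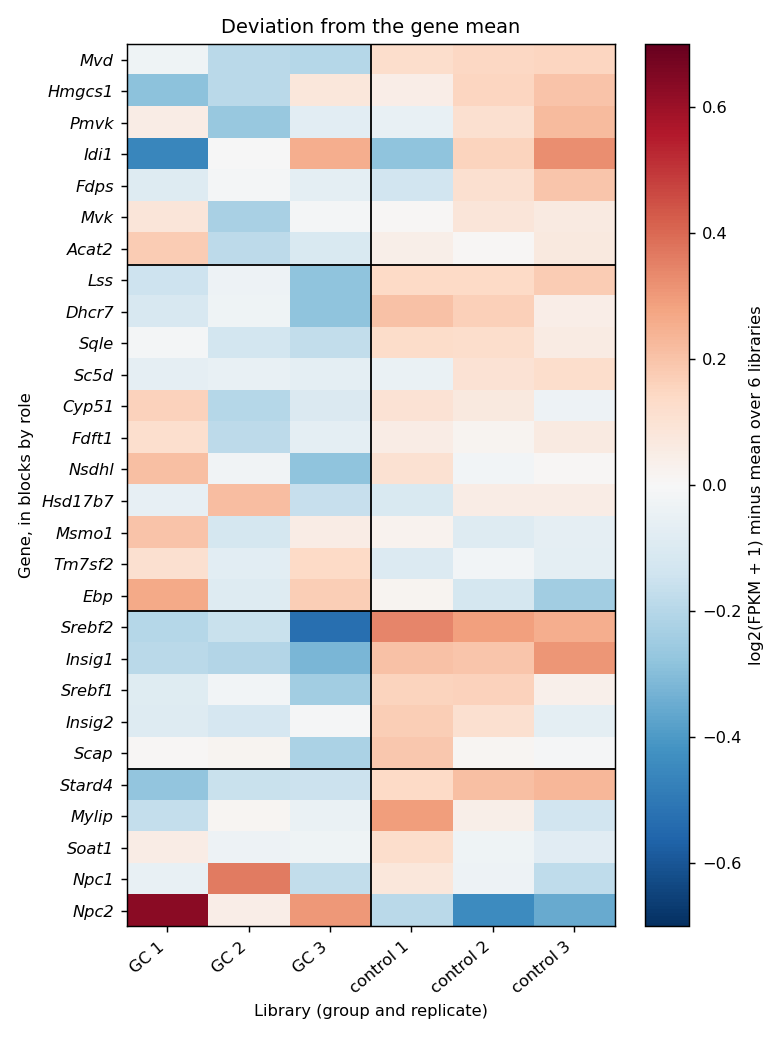
Log2(FPKM + 1) of the 28 tested genes minus the gene's mean over the 6 libraries (colour), with genes in rows by role and libraries in columns, GC left of control. Npc2 in GC replicate 1 and Srebf2 in GC replicate 3 are the furthest from 0, and Idi1 is low in replicate 1 of both groups.

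Summed over the 18 synthesis enzymes, the libraries held 510, 446 and 471 FPKM in GC and 508, 517 and 520 FPKM in control. GC replicate 1 lay within the controls. As a share of all FPKM in the library the same enzymes made up 0.149%, 0.155% and 0.148% in GC and 0.162%, 0.174% and 0.172% in control. The shares did not overlap, with the total of FPKM itself between 288870 and 342666 per library. Relative to the control mean, 18, 24 and 23 of the 28 tested genes were lower in GC replicates 1 to 3, where 49.0%, 56.0% and 49.5% of all tested genes were.

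Genes that move and store sterol went in both directions. Stard4, a carrier of cholesterol through the cytosol and a known SREBP target, held 16.5, 18.0 and 18.1 FPKM in GC, against 22.3, 23.5 and 23.9 FPKM in control. The groups were well apart, and the mean was 24.5% lower in GC. Its log2 fold change was -0.39 ± 0.09 (SE), with an adjusted p of 0.0850 by limma-trend and 0.0304 with the replicate block.

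Npc2, the soluble protein that takes cholesterol from lipoproteins inside the lysosome, held 23.1, 15.1 and 18.2 FPKM in GC, against 12.7, 10.5 and 11.2 FPKM in control. It was the single sterol gene with every GC library above every control, and the mean was 63.9% higher. The log2 fold change was 0.65 ± 0.16 (SE), with an adjusted p of 0.0850 by limma-trend and 0.0135 with the replicate block. Npc1, the membrane partner to which NPC2 hands cholesterol, held 4.72, 6.63 and 4.27 FPKM in GC and 5.28, 4.78 and 4.24 FPKM in control. Its groups overlapped, and without GC replicate 2 its fold change of 0.09 became -0.07. Npc2 stood at 4.90, 2.28 and 4.27 times the FPKM of Npc1 in GC and at 2.41, 2.20 and 2.65 times in control, so the ratio overlapped between groups through GC replicate 2.

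Soat1, which esterifies cholesterol for storage, averaged 7.84 ± 0.295 FPKM in GC and 7.91 ± 0.664 FPKM in control, with a 95% interval of the log2 fold change of -0.24 to 0.22. Mylip held 6.14, 7.07 and 6.76 FPKM in GC and 8.79, 7.23 and 6.29 FPKM in control, and control replicate 1 stood above the other 5 libraries. Abca1 was barely detected, with 1, 5 and 8 reads in GC and 4, 1 and 1 reads in control, so no difference could be measured at this depth.

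The rest of the pathway was described by a list of 60 other genes of isoprenoid branches, SREBP processing, fatty acid synthesis, uptake and efflux. This list was chosen with earlier results of these data known, so its counts are a description and not independent support. Of the 51 that were tested, 34 were negative, beside 52.3% of all tested genes, and the median was -0.07. Of these 51 genes 1 fell, beside 0.853% of all tested genes, none rose, beside 1.08%, and 50 did not pass. The gene that fell was Acaca, the acetyl-CoA carboxylase that commits carbon to fatty acids. Acaca held 4.13, 5.96 and 4.07 FPKM in GC, against 8.85, 9.30 and 8.32 FPKM in control. Every GC library lay far below the controls, and the log2 fold change was -0.80 ± 0.14 (SE) with an adjusted p of 0.0374 by limma-trend. Without GC replicate 1 the adjusted p was 0.0798, without GC replicate 3 it was 0.160, and without control replicates 1, 2 and 3 it was 0.134, 0.169 and 0.123.

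With the replicate block 5 of the 51 fell, beside 5.0% of all tested genes, and none rose, beside 3.99%. Beside Acaca they were, named after their values were seen, Fasn, the fatty acid synthase, Elovl6, a fatty acid elongase, and the lipoprotein receptors Lrp8 and Vldlr. Fasn held 25.7, 35.2 and 20.5 FPKM in GC, against 45.2, 48.0 and 45.5 FPKM in control. Elovl6 held 10.4, 18.5 and 16.3 FPKM in GC and 16.4, 22.0 and 21.1 FPKM in control, with overlap. Among the receptors, Lrp8 held 5.63, 6.97 and 5.36 FPKM in GC, against 9.88, 9.50 and 8.52 FPKM in control, and Vldlr 6.37, 6.16 and 6.76 FPKM in GC, against 8.33, 8.72 and 8.56 FPKM in control. In Fasn, Lrp8 and Vldlr the groups did not overlap, and without the block their adjusted p-values were 0.0782, 0.0611 and 0.0929. That of Elovl6 was 0.352 without the block and 0.410 by limma-voom. Among the 12 fatty acid synthesis targets of SREBP 10 fold changes were negative, beside 52.3% of all tested genes, with a median of -0.24. In 6 of the 12 all GC libraries lay below all controls, beside 14.7% of all tested genes. Among 9 genes of SREBP processing and sterol-dependent degradation the split was 5 negative and 4 positive. Of the 8 genes of isoprenoid branches 2 were negative, with a median of 0.03.

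Gene length and overlap touch some of these values. Libraries differed along gene length: in the quintile of tested genes with the longest exons the median deviation from the gene mean was -0.20, 0.09 and -0.09 in GC replicates 1 to 3 and 0.04, 0.11 and 0.08 in control replicates 1 to 3. Among the 14 sterol genes with the shortest exons, up to 4415 bases, GC replicate 1 was the highest GC library in 9, and among the 14 longest it was so in 4. With a length trend removed in each library the median fold change of the sterol genes was -0.16, 21 of 28 were negative, and Srebf2 (adjusted p = 0.0490) and Insig1 (adjusted p = 0.0265) fell. Of all genes 3.74% were then called, 1.92% lower and 1.82% higher, and no sterol gene rose. With the length trend removed and the replicate block, 13.4% of all genes were called. Of the sterol genes Srebf2, Insig1, Mvd and Stard4 then fell, beside 7.73%, and Npc2 rose, beside 5.65%. On the recovered reads limma-voom called 3.21% of all genes. It called 2 of 26 sterol genes lower, Srebf2 and Insig1, beside 1.34% of all genes, and 1 higher, Npc2, beside 1.87%. With GC replicate 2 left out, 10.5% of all genes were called; Srebf2, Insig1 and Stard4 fell, beside 6.5%, and Npc2 rose, beside 3.96%.

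Of the 29 genes 10 share exon bases with another annotated gene, and the strand setting of the counting is not given in the sources used here. Fdft1 shares 774 bases with Ctsb on the opposite strand, and Ctsb held 96.5, 78.1 and 83.7 FPKM in GC and 63.0, 56.1 and 51.3 FPKM in control. The part of Ctsb in the value of Fdft1 was not tested. The longest overlap is that of Fdps, which shares 1124 exon bases with Gm43738 on the same strand, and Gm43738 was listed at no more than 0.112 FPKM. Tm7sf2 shares 532 bases with Vps51 on the same strand, Npc1 601 with Rmc1 and Gm15956, and Scap 985 with 5830462I19Rik. Srebf2, Insig1, Stard4, Npc2, Mvd, Sqle, Dhcr7 and Sc5d share none. Recovered reads, available for 26 of the 28 tested genes and not for Tm7sf2 and Npc1, ran from 198 per library in Fdps to 8296 in Srebf2.

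In mm10 coordinates Srebf2 (ENSMUSG00000022463.8) lies on the plus strand of chromosome 15 from 82147181 to 82205379, Insig1 (ENSMUSG00000045294.11) on the plus strand of chromosome 5 from 28071363 to 28078662, Stard4 (ENSMUSG00000024378.9) on the minus strand of chromosome 18 from 33199355 to 33213862 and Npc2 (ENSMUSG00000021242.9) on the minus strand of chromosome 12 from 84754562 to 84773152. Each value is a sum over all exons of the gene, coding and untranslated.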

How the data were processed

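The authors deposited FPKM values, a table of 54532 rows by 6 libraries whose header names no unit. HISAT2, HTSeq, DESeq2 and the build mm10 are listed in the submitters' processing notes, per the labels, with no versions, annotation or strand setting given. Libraries were made from fragmented mRNA with an NEBNext Ultra kit, per the labels' protocols. Of rows sharing a name, the one with the highest mean was kept. With exon lengths of GENCODE M21 and 1 step per library, 96.8% of 26482 matched rows above 0 gave whole reads in all 6 libraries within 0.001. These are the recovered reads.

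Log2(FPKM + 1) was tested with limma-trend (limma 3.58.1, R 4.3.3). The 11729 rows tested reached 1 FPKM in 3 or more libraries; p-values were two-sided and adjusted by Benjamini-Hochberg, with a threshold of 0.05. Fold changes on this scale understate those of low genes. The code was tested on simulated data, where false calls exceeded the nominal share, more so with the replicate block. The members and lists were chosen with earlier results of these data known. Every member is named. Of the other pathway genes, those past the threshold without or with the replicate block are named. Outside that rule Nr1h2, Nr1h3, Abcg1, Ch25h, Pltp and Pgrmc1 are also named, and none of these passed. The replicate numbers come from the sample titles. Deviations from group means correlated at 0.511, 0.248 and 0.383 between GC and control libraries numbered 1, 2 and 3, each over 0.1, which was taken as pairing. Alternatives were the replicate block, removal of a length trend, another pseudocount (0.1), other filters and scalings, limma-voom, and each library left out. Copies were sought with megablast at 95% identity over 200 bases.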

Additional observations from a re-analysis of the deposited data

How the results depend on the processing

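Of the 28 tested sterol genes 23 kept the sign of their fold change in all 15 alternatives, and Idi1, Nsdhl, Hsd17b7, Npc1 and Soat1 did not; none of those 5 was called in any. The number of genes called over the whole table, 227, was 1054 with the replicate block, 439 with the length trend removed, 1570 with both, 17 with no filter and 356 by limma-voom. The number of sterol genes called lower, 0, was 3 with the replicate block, beside 5.0% of all tested genes. It was 2 with the length trend removed, beside 1.92%, 4 with both, beside 7.73%, and 2 by limma-voom, beside 1.34%. It was 1 with a filter of 5 FPKM and 1 rescaled to TPM, for which the shares over all genes are not given here. The number called higher, 0, was 1 with the block, with block and length trend, and by limma-voom, beside 3.99%, 5.65% and 1.87% of all tested genes. The median fold change, -0.12, was -0.16 with the length trend removed with or without the block, -0.19 rescaled to TPM and -0.083 with library medians set equal. Other sterol pathway genes called, 1, were 5 with the block, 2 with the length trend removed, 7 with both, 0 with no filter, 3 with a filter of 5 FPKM, 0 rescaled to TPM and 2 by limma-voom. Leaving out 1 library gave 16 to 1227 genes called over the whole table, the highest without GC replicate 2, 0 to 3 sterol genes called lower, 0 to 1 higher, 20 to 23 negative fold changes, medians of -0.17 to -0.10, and 0 to 4 other pathway genes called. The 3 lower and the 1 higher were those without GC replicate 2, beside 6.5% of all tested genes lower and 3.96% higher. The cause of the shifts between alternatives was not tested. Insig1 and Srebf2 passed the threshold in 6 alternatives each, Npc2 in 4, Stard4 in 3 and Mvd in 1. With 3 libraries a group, the 95% interval of the fold change excluded 0 in 7 of the 28 genes without the replicate block. These are the 7 with an unadjusted p under 0.05 by limma-trend, a level that 19.3% of all tested genes reached.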

Other observations

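The liver X receptor and efflux genes of the other pathway list were mostly below the filter in this line: 4 of 10 were tested, and none of these was called. Nr1h2, which encodes the liver X receptor found in most tissues, held 22.1, 18.2 and 20.1 FPKM in GC and 22.3, 23.0 and 21.1 FPKM in control. Nr1h3, its more tissue-restricted partner, was under the filter with 0.304, 0.352 and 0.369 FPKM in GC and 0.223, 0.127 and 0.177 FPKM in control. The efflux pump gene Abcg1 and Ch25h, which makes an oxysterol, were listed at 0 in all 6 libraries. Pltp, the phospholipid transfer protein gene, held 59.1, 58.4 and 42.5 FPKM in GC and 62.3, 58.7 and 55.1 FPKM in control. Pgrmc1, a haem-binding membrane protein that associates with sterol demethylase, was the single one of the 60 other pathway genes to pass the filter with every GC library above every control, at 75.3, 66.2 and 81.0 FPKM in GC and 59.5, 61.6 and 55.5 FPKM in control, and it did not pass (limma-trend, adjusted p = 0.199). It was chosen after its values were seen.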
